A study of Mus musculus with 20 samples.

Results

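A set of 2278 regions bound by GATA6 early after its induction, and by neither SOX17 nor the pluripotency factors OCT4, SOX2 and ESRRB, was examined for chromatin accessibility measured by ATAC-seq. These regions made up 5.37% of the 42403 GATA6 binding regions in the deposited table and 19.2% of its 11875 early regions. They were chosen from deposited categories: GATA6 binding in the early cluster of a k-means grouping of ChIP-seq enrichment, no SOX17 peak and no peak of the pluripotency factors. The paper calls this cluster Early&Constant and describes GATA6 binding there as rapid and then maintained, unlike that at transient regions. The categories came from ChIP-seq, so ATAC-seq values did not enter the choice directly, and "GATA6 alone" means alone among the factors assayed. The paper reports that regions bound by pluripotency factors were highly accessible in embryonic stem cells, and the choice left these out. Shares by accessibility at d0, chromatin class and Oct4 knockdown class, and those of motifs, are therefore not independent of the choice. In the study, KH2 mouse embryonic stem cells, a C57BL/6 x 129/Sv line carrying a doxycycline-inducible Gata6 cassette, were induced with doxycycline on inactivated feeder fibroblasts, which were removed by adsorption before the assay. The groups were uninduced cells (d0, 3 samples), cells titled d008 and d016 (called 8h and 16h here), d1 and d2 (3 samples each), cells titled d4 (2 samples) and XEN cells (3 samples). XEN cells are a wild-type extra-embryonic endoderm line (X10) from the CD1 background, grown without induction and without LIF, and so differ from the induced cells in genotype and culture as well as in state. The treatment labels list 16 h, 24 h, 48 h and 72 h of doxycycline for 8h, 16h, d1 and d2, and the titles are used here. All induced cells expressed the factor from a transgene, from 1 of 2 clones that the sources used here do not tell apart for this assay.

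GATA6 is a zinc finger transcription factor that reads the GATA motif. In the blastocyst it is needed for primitive endoderm, the layer that covers the epiblast and gives rise to the endoderm of the yolk sac. Forced GATA6 expression drives embryonic stem cells to a primitive endoderm-like fate. ATAC-seq reads accumulate where the Tn5 transposase can reach DNA, so an increase at a bound region reports more open chromatin there. In a bulk assay, more cells with an open region and more opening per cell cannot be told apart.

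GATA motifs were frequent, strong and close to the point of highest GATA6 enrichment (the summit) in these regions. A match to the GATA6 motif was listed for 97.6% of them against 89.7% of all regions, and the median score of the best match was 11.6 against 10.2. The middle of the best match lay a median of 35 bases from the summit, against 51 bases over all regions. Among the best matches, 54.7% contained AGATAAG and 16.1% contained TGATAAG, against 37.8% and 12.6% over all regions. Similar classes came close to these values. In early regions bound by SOX17 without pluripotency factors, 95.9% had a match, with a median score of 11.2 and a median distance of 39 bases. The median distance to the summit was 41 bases in regions bound late by GATA6 alone and 39 in those bound transiently. The best matches below, read from the GRCm38 (mm10) reference, belong to the regions that carry the largest changes described afterwards. Capitals mark the 13 bases of the motif match, lower case the 8 bases on each side, and each sequence is given 5′ to 3′ on the strand of the match. They are the 8 largest gains at d4, the only fall at d4, the 4 largest gains at d1, the 3 largest gains in XEN cells, and the regions at Gata4 and Gata2.
Sash1, intron, chr10:8740964-8740992, minus strand: gcatggctGACAGATAAGGCCtgctctac
Usp12, intron, chr5:146749593-146749621, plus strand: actctaggTCTAGATAAGATTgtactgag
Hsd17b3, intron, chr13:64071641-64071669, minus strand: tccttcctAGGTGATAAGATGtagccagc
Frmd4a, intron, chr2:4356234-4356262, plus strand: agtggaggCAGAGATAAGGCTtctgggaa
Gja1, intergenic, chr10:56604079-56604107, minus strand: attagcatCCTAGATAAGGTAgcaattac
Actn1, intergenic, chr12:80290669-80290697, minus strand: ggcatctcTACAGATAAGGATtcagcgta
Dusp7, intergenic, chr9:106397912-106397940, minus strand: ttatcaagGAGAGATAAGCGGtggccaga
Cdcp2, intron, chr4:107109379-107109407, plus strand: gtgcggcaAAGCGATAAGCACtcttattg
Dusp6, intergenic, chr10:99285866-99285894, minus strand: cggaaaagCACAGATAAGAGGaaaggaat
Abcb5, intergenic, chr12:119080716-119080744, plus strand: agagacccCTGAGATATGCTAtctatcat
Pdss2, intron, chr10:43257698-43257726, minus strand: aagctcccGAGAGATAAGAAGaaaaccaa
Vps41, intron, chr13:18827255-18827283, plus strand: gaggcagaGAGAGATAAGGCTtttagtcc
Pik3r1, intron, chr13:101731917-101731945, plus strand: gttgggggCAGAGATAACATGtgggcttg
Ankrd7, intergenic, chr6:19991986-19992014, minus strand: aaagttctTAGAGATAAGGTTgcatccta
Raver2, intron, chr4:101080103-101080131, minus strand: agccctggGTGAGATAAGAACatgagctt
Mon1b, intergenic, chr8:113125810-113125838, plus strand: aaacacacGAAAGATAAGGCGagagatta
Gata4, upstream, chr14:63271747-63271775, plus strand: cagcaaaaAATAGATAAGAAAagtgattc
Gata2, intergenic, chr6:88169780-88169808, minus strand: agcttatcTGCAGATAAGCTActgtctct

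Many of the regions held more than 1 GATA site. The 150 bases around the summit were searched on both strands for 4 hexamers. One was AGATAA, present in 70.7% of the regions against 49.5% of all regions. With another first base the search took TGATAA, present in 37.8% against 27.5%. With another last base it took AGATAG, present in 23.6% against 20.8%. With both bases changed it took TGATAG, present in 13.7% against 11.6%. At least 1 of these was found in 92.5% of the regions against 78.6% of all regions. At least 2 were found in 63.8% against 37.0%, and at least 3 in 26.8% against 11.2%. In early regions bound by SOX17 without pluripotency factors, the shares with at least 1, 2 and 3 were 90.8%, 53.1% and 18.3%. None of these 4 hexamers contains another. The sequence ATAAGATAAGATA, which reads through overlapping GATA sites, was the best match most often found, at 14 of the regions and 41 of all regions. The 2223 regions with a match nevertheless held 1782 different best-match sequences, of which 1458 occurred in a single one of these regions. A match is a description of the sequence and not proof of binding at those bases.

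Motifs of the other factors were not missing. A SOX17 motif was listed in 58.1% of the regions against 69.2% of all regions and 76.2% of the 2001 early regions bound by SOX17 without pluripotency factors. The composite OCT4:SOX2 motif was listed in 65.0% against 71.5% of all regions, and the ESRRB motif in 32.6% against 36.3%. The median width was 485 bases against 525, and the median GC content 44.7% against 45.2%. By GENCODE annotation, 1184 of the regions (52.0%) lay in introns, 811 (35.6%) between genes, 228 within 1000 bases of the start of a basic transcript and 55 (2.41%) in exons. Introns held 49.3% of all regions, exons 2.58%, and starts 9.46%. Distances to genes are given from the start of the gene record, and 5 of the regions, among them the one at Gata4, lay within 1000 bases of such a start but of no basic transcript.

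In uninduced cells most of these regions were closed. In the deposited accessibility classes, 1770 regions (77.7%) were closed, 449 (19.7%) moderate and 59 (2.59%) accessible at d0, against 61.3%, 31.2% and 7.43% of all regions. By the deposited grouping of published embryonic stem cell chromatin profiles, 634 (27.8%) lay in facultative heterochromatin, the chromatin marked by Polycomb, against 22.3% of all regions. A further 583 (25.6%) were classed as naive against 18%, and 226 (9.92%) as constitutive heterochromatin against 10.2%. Active enhancers made up 4.26% against 11.2%, primed enhancers 13.5% against 16.9% and poised enhancers 13.1% against 14.6%. GATA6 binding was classed as unchanged after knockdown of Oct4 at 2142 regions (94.0%) against 85.2% of all regions. It was classed as decreased at 103 (4.52% against 6.25%) and increased at 33 (1.45% against 8.57%). Similar classes, also without peaks of the pluripotency factors, shared part of this. Early regions bound by SOX17 without pluripotency factors were 72.0% closed at d0 and 82.5% unchanged after Oct4 knockdown. Regions bound late by GATA6 alone were 84.2% closed and 93.7% unchanged, and those bound transiently 56.1% and 96.3%.

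Accessibility at these regions rose gradually from 16h, was highest at d2 and then receded. The deposited columns hold mapped reads scaled to the depth of each library (RPM) and averaged by the authors over each group, so they carry no replicate error. The median over the 2278 regions was 0.0605 RPM at d0, 0.0643 at 8h, 0.0800 at 16h, 0.0952 at d1, 0.142 at d2, 0.112 at d4 and 0.106 in XEN cells. On the log2(RPM + 0.03) scale the median change from d0 was 0.04 at 8h, 0.23 at 16h, 0.40 at d1, 0.79 at d2, 0.51 at d4 and 0.45 in XEN cells. The highest of the 6 averages from d0 to d4 fell at d2 for 1396 regions (61.3%), against 45% of all regions. It fell at d4 for 470, at d1 for 234, at 16h for 107, at 8h for 66 and at d0 for 5.

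Most of that rise was shared with GATA6 regions in general. The median of all regions moved by 0.11 at 16h, 0.31 at d1, 0.69 at d2, 0.52 at d4 and 0.40 in XEN cells on the same scale. Relative to it, the regions bound by GATA6 alone stood 0.12 higher at 16h, 0.09 at d1, 0.10 at d2 and 0.05 in XEN cells, and at d4 the difference was -0.0022. After each column was centred on its own median, their median change was -0.04 at d2, -0.04 at d4 and -0.04 in XEN cells, and 0.07 at 16h. The direction of the change at d2, d4 and in XEN cells therefore depends on the scaling by mapped reads.

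The rise at 16h was small but covered most of the regions. The average was above d0 at 16h for 2038 regions (89.5%) against 69.7% of all regions, and at d2 for 2108 (92.5%) against 79.9%. Early regions with SOX17 and without pluripotency factors shared this, with 88.7% above d0 at 16h and 97.8% at d2. None of the regions passed 2-fold in either direction at 16h (0.00236% of all regions in each). More than 2-fold gains were seen at 101 regions at d1 (4.43% against 4.55% of all regions), 847 at d2 (37.2% against 36.8%), 465 at d4 (20.4% against 31.0%) and 428 in XEN cells (18.8% against 27.7%). Losses of more than 2-fold were fewer than over all regions. They were seen at 0 regions at d2 (1.41% of all regions), 9 at d4 (0.395% against 7.27%) and 21 in XEN cells (0.922% against 8.83%). These counts from averages carry no test, and all of them share the d0 average.

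**Figure D1:**
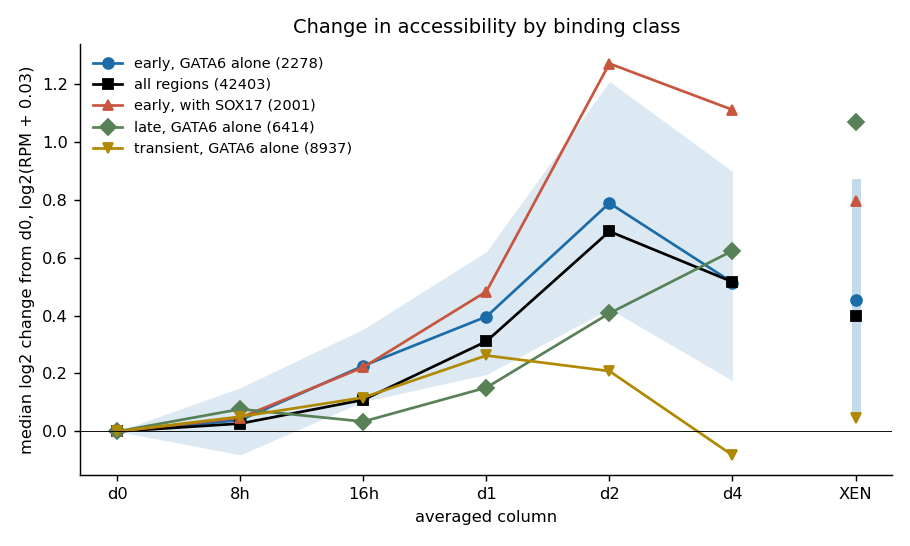
Median change from d0 on the log2(RPM + 0.03) scale (vertical axis) in the averaged columns (horizontal axis) for 5 sets of GATA6 regions, with the number of regions in the key. The shaded band and bar span the quartiles of the early regions bound by GATA6 alone, whose median peaked at 0.79 at d2 and was 0.51 at d4.

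Set beside the most similar classes, the median of these regions lay below that of early regions with SOX17 and above that of transiently bound regions from d2 on. Early regions with SOX17 and without pluripotency factors changed by a median of 0.22 at 16h, 1.27 at d2 and 1.11 at d4. The 8937 regions bound transiently by GATA6 alone changed by 0.12, 0.21 and -0.08, and the 6414 regions bound late by GATA6 alone by 0.03, 0.41 and 0.62. In XEN cells the late regions were at 1.07 and the early GATA6-alone regions at 0.45. More than 2-fold gains at d4 were seen at 20.4% of the early regions bound by GATA6 alone, 56.8% of those with SOX17, 24.8% of the late and 3.26% of the transient regions. Losses of more than 2-fold at d4 were seen at 0.395%, 0.05%, 0.0935% and 5.72% of the same classes. These are side-by-side medians of averaged columns, and the differences between the classes were not tested.

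For part of the table the averages could be taken apart. At 24727 regions, 1282 of them bound by GATA6 alone and early, the averages carried enough digits to recover the whole reads of single libraries, 3 each for 8h, 16h, d1 and d2 and 2 each for d4 and XEN cells. For XEN cells 3 samples are listed, but the average resolved into 2 libraries. Whether a sample was left out or merged is not known, and XEN values rest on these 2 libraries. No solution was found for d0, so 8h serves as the reference in every test of the induced cells against an early time. The recovered libraries are named a, b and c by falling size and are tied to no sample label. The search allowed no fewer than 1 read per library, and 1 read was the lowest value in every library. A read added to every count could not be told apart from a real one, and read numbers given below include it. That read was worth between 0.00347 and 0.00552 RPM in all libraries but the smaller XEN library (b), where it was worth 0.0231 RPM. The lowest average was 0.0133 RPM in XEN cells, against 0.0046 to 0.00518 RPM in the other groups. The recovered GATA6-alone regions had medians close to those not recovered, 0.144 RPM against 0.138 RPM at d2 and 0.116 RPM against 0.103 RPM at d4.

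In single libraries the median over the 1282 regions was 0.0750, 0.0752 and 0.0451 RPM at 8h and 0.109, 0.0767 and 0.0627 RPM at 16h. It was 0.0765, 0.12 and 0.0938 RPM at d1, 0.127, 0.155 and 0.15 RPM at d2, 0.111 and 0.118 RPM at d4, and 0.0936 and 0.115 RPM in XEN cells. The 16h libraries overlapped those of 8h, the d2 and d4 libraries lay above every 8h library, and both d4 libraries lay below every d2 library. The share of all recovered reads that fell in these regions was 3.45% to 3.79% at 8h, 3.87% to 4.07% at 16h, 3.61% to 3.93% at d1, 3.48% to 3.69% at d2, 3.63% to 3.68% at d4 and 3.88% to 4.02% in XEN cells. Every 16h and XEN library, and 1 of the d1 libraries, lay above every 8h library in that share.

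**Figure D2:**
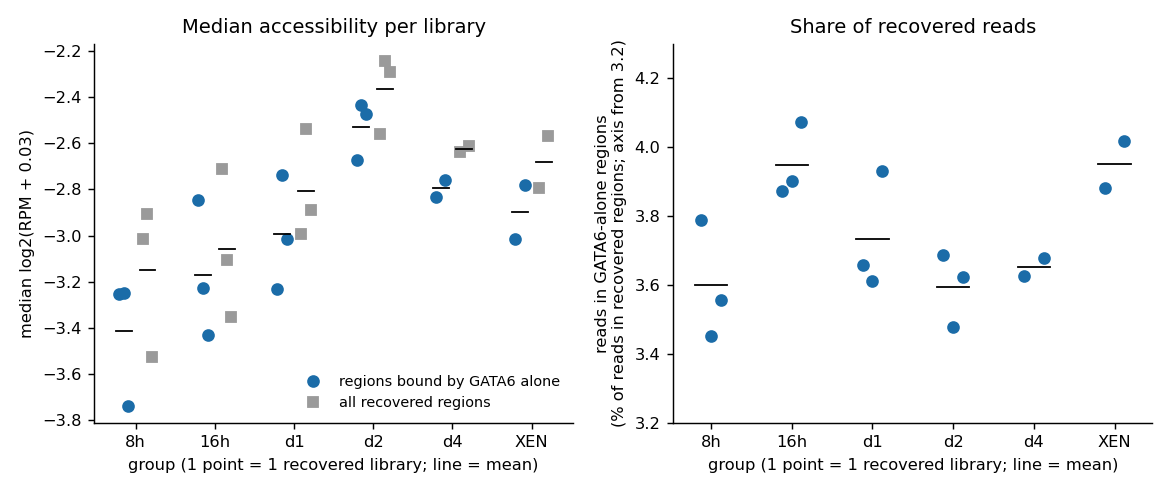
Left, the median log2(RPM + 0.03) over the 1282 recovered regions bound by GATA6 alone (circles) and over all 24727 recovered regions (squares) in each library. Right, the percentage of recovered reads that fell in the GATA6-alone regions, on an axis that starts at 3.2; each point is a library and lines are group means, and the 3 libraries of 16h (3.87% to 4.07%) lie above the 3 of 8h (3.45% to 3.79%).

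Single regions passed the test mainly at d2 and d4 and almost all upward. A region was called at an adjusted p under 0.05 in limma, with Benjamini-Hochberg adjustment over all 24727 regions, and a change over 2-fold. Against 8h, 466 of the 1282 regions (36.3%) rose at d2 and 0 fell, against 36.8% and 1.15% of all regions, so the share that rose was near the background. At d4, 270 (21.1%) rose against 30.5% of all regions, and 1 fell against 6.6%. At d1, 64 (4.99%) rose and 0 fell, against 5.43% and 0.0162%. At 16h none was called in either direction, against 0.00404% of all regions in each direction, while 103 (8.03%) had an unadjusted limma p under 0.05, 98 of them higher, against 1508 (6.1%) of all regions. The 103 became 48 without library a of 16h, 56 without library c of 8h and 165 without library c of 16h. Altogether 770 regions (60.1%) were called at no time from 16h to d4 against 8h, where 49.9% of all regions were not called.

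Fewer regions were called between d2 and d4 and between d4 and XEN cells, and the balance of directions rested on the scaling. From d2 to d4, 5 of the regions rose and 48 (3.74%) fell, against 2.0% and 8.74% of all regions. Between d4 and XEN cells, 49 (3.82%) were higher in XEN cells and 98 (7.64%) lower, against 5.56% and 12%. With each library centred on its median, 9 of the 1282 regions rose and 14 fell from d2 to d4, against 1327 and 1141 of all 24727. With quantile normalisation 5 rose and 8 fell, against 760 and 713. For XEN cells against d4 the same settings gave 62 higher and 101 lower (1661 and 3176 of all regions), and 88 higher and 93 lower (2214 and 2355).

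**Figure D3:**
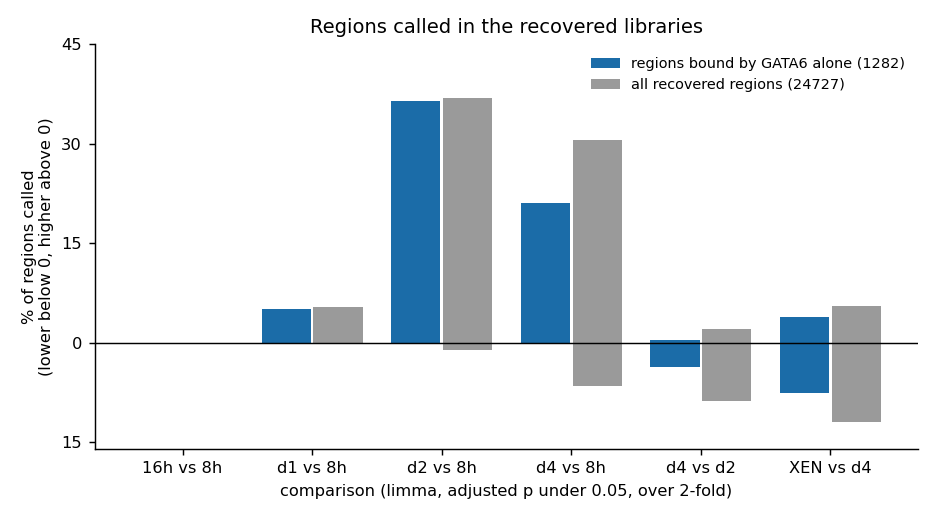
Percentage of regions called higher (above 0) or lower (below 0) by limma in each comparison, for the 1282 recovered regions bound by GATA6 alone and all 24727 recovered regions. The shares that rose at d2 were 36.3% and 36.8%, and those that fell at d4 were 0.078% and 6.6%.

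The number of calls rested on the scaling and on single libraries. With each library centred on its median, 107 of the 1282 regions rose and 56 fell at d2, against 3457 and 3359 of all 24727 regions. At d4, 61 rose and 37 fell, against 4002 and 3861 of all regions. The 64 calls at d1 became 3 without library c of 8h and 3 without library b of d1, and 97 and 113 without library b of 8h and library a of d1. The calls from d2 to d4 became 5 in all without either d4 library, 17 without library b of d2 and 15 without library c of d2. Those between XEN cells and d4 became 52 and 46 without library a or b of d4 and 51 without library b of XEN.

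Few of the regions that were already open at d0 had lost accessibility by d4. Of the 59 accessible regions, 0 lost more than 2-fold by d4 in the averages against 36.5% of all accessible regions, and 6 (10.2%) in XEN cells against 50.6%. Their median was 0.511 RPM at d0, 1.02 at d2, 0.794 at d4 and 0.442 in XEN cells. In the recovered libraries, 0 of 32 accessible and 1 of 261 moderate regions fell at d4 against 8h, where 31.7% and 11.6% of all regions of those classes did. Between d4 and XEN cells, 5 of 32 (15.6%) and 37 of 261 (14.2%) were lower in XEN cells, against 19.1% and 13.6%. The shares that rose at d4 were 6 of 32 (18.8%) and 48 of 261 (18.4%), against 11.5% and 17.8%.

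Closed regions gained accessibility, more of them at d2 than at d4. At d2, 355 of 989 closed regions (35.9%) rose against 40.7% of all closed regions. At d4, 216 (21.8%) rose against 39.7%, and 0 fell against 0.657%. In the averages the closed regions went from a median of 0.0498 RPM at d0 to 0.115 at d2, 0.0906 at d4 and 0.0930 in XEN cells. Their median change in XEN cells was 0.57 against 0.81 for all closed regions. The moderate regions had medians of 0.160 RPM at d0, 0.314 at d2 and 0.219 at d4. In XEN cells, a separate line, their median was 0.161 RPM.

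**Figure D4:**
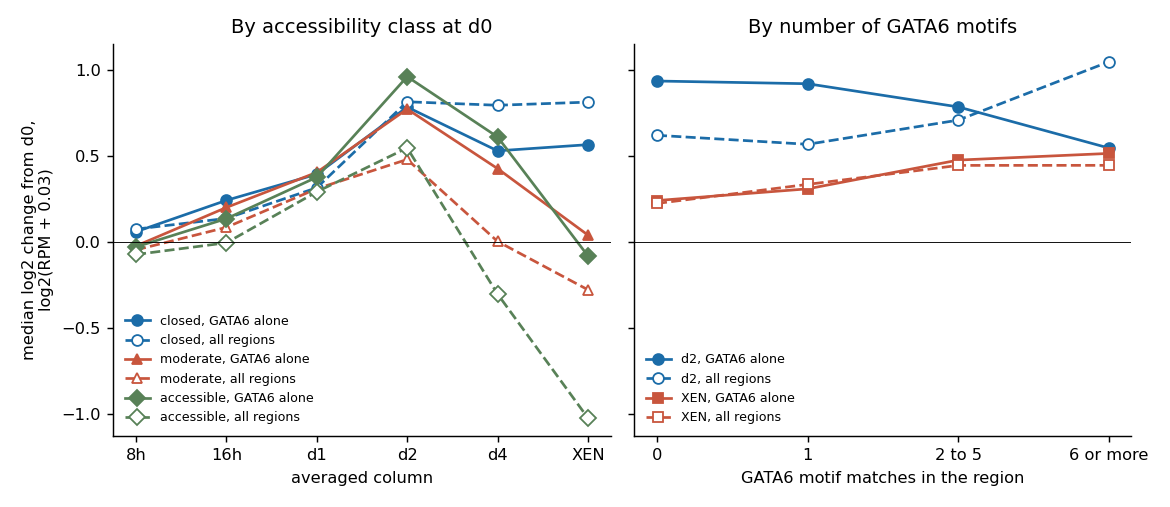
Median change from d0 on the log2(RPM + 0.03) scale by accessibility class at d0 (left, across columns) and by number of GATA6 motif matches (right, at d2 and in XEN cells), for early regions bound by GATA6 alone (filled) and all regions (open). At d2 the 2 sets run in opposite directions with motif number, from 0.92 to 0.55 and from 0.57 to 1.05 between 1 match and 6 or more.

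More motif matches went with a smaller gain at d2 in these regions. The median change at d2 was 0.92 for the 311 regions with 1 match, 0.78 for the 1686 with 2 to 5 and 0.55 for the 226 with 6 or more. Over all regions the same classes stood at 0.57, 0.71 and 1.05. In the recovered libraries 77 of 167, 345 of 974 and 31 of 112 of the GATA6-alone regions rose at d2, which are 46.1%, 35.4% and 27.7%, against 32.3%, 37.0% and 51.1% of all regions of those classes. At 16h and in XEN cells the medians of the GATA6-alone regions ran the other way, at 0.19, 0.23 and 0.27 and at 0.31, 0.48 and 0.51. The regions with 6 or more matches were also wider, with a median of 764 bases against 417 for those with 1. Uninterrupted repeats of GATA, at least 3 in a row on either strand, were present in 24 of the regions (1.05% against 0.552% of all regions). Their median change at d2 was 0.31, near the 0.37 of the 234 regions with such repeats among all regions. The score of the best match showed little relation to the change at d2 across regions (Spearman rho -0.08 over 2223 regions, which share the libraries and the d0 average).

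GC content went with the change at d1 and d2 in these regions. Spearman's rho between GC content and the change from d0 was 0.36 at d1, 0.35 at d2 and 0.19 at d4 across the 2278 regions, against 0.21, 0.10 and -0.05 across all regions. In XEN cells it was -0.14 against -0.20. All of these share the d0 average, and whether base composition of the libraries plays a part was not tested.

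The chromatin class in embryonic stem cells also separated the regions. At d2 the median change was 0.96 for poised enhancers, 0.87 for facultative heterochromatin, 0.85 for promoters, 0.84 for constitutive heterochromatin, 0.71 for active enhancers, 0.70 for primed enhancers and 0.61 for the naive class. Over all regions the same classes stood at 0.62, 0.81, 0.83, 0.62, 0.31, 0.55 and 0.87. In XEN cells facultative heterochromatin stood at 0.66 and active enhancers at -0.11, against 0.93 and -0.72 over all regions. In the recovered libraries 149 of 374 facultative heterochromatin regions (39.8%) rose at d2, against 39.3% of all regions of that class, and 73 of 279 naive regions (26.2%), against 44.3%. The 103 regions with less GATA6 after Oct4 knockdown had a median change of 1.15 at d2 and 0.60 at d4. Those classed as unchanged stood at 0.78 and 0.51. Over all regions these classes stood at 1.21 and 0.33, and at 0.61 and 0.43.

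Regions with and without a SOX17-bound neighbour had close medians after induction. Of the 2278 regions, 654 had such a region within 10 kb and 1624 did not. Their median changes were 0.79 and 0.78 at d2, 0.52 and 0.51 at d4, and 0.38 and 0.49 in XEN cells. In the recovered libraries 145 of 379 (38.3%) and 321 of 903 (35.5%) rose at d2, against 36.8% of all recovered regions. The regions with a SOX17-bound neighbour started higher, at 0.0799 RPM against 0.0543 RPM at d0.

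Single regions show the course in each library, named by the gene they lie in or, between genes, by the nearest protein-coding start. Position near a gene does not show that the gene is regulated from there.

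The 8 largest gains at d4 were all at regions closed at d0, the class of most recovered regions. Of the 270 regions that rose at d4, 216 were closed at d0, as were 989 of the 1282 recovered regions. The region in an intron of Sash1, which encodes a signalling scaffold (chr10:8740697-8741115), had 0.0609, 0.0611 and 0.0332 RPM at 8h, 0.503, 0.667 and 0.552 RPM at d2, and 0.513 and 0.593 RPM at d4. It rose by 2.85 ± 0.38 at d4 (log2 ± SE, limma adjusted p = 5.52e-12). In XEN cells it held 0.101 and 0.0693 RPM, a change of -2.35 ± 0.41 from d4 (limma adjusted p = 2.28e-06). Before d2 its highest value was 0.142 RPM, in a d1 library, so the d2 and d4 libraries overlapped no other group. It was the only named region among both the leading gains at d4 and the leading losses in XEN cells.

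The region in Usp12, which encodes a deubiquitinase (chr5:146749487-146749793), held 0.0234, 0.0282 and 0.00949 RPM at 8h, which are 5, 6 and 2 reads. It held 0.131, 0.252 and 0.310 RPM at d2 and 0.251 and 0.305 RPM at d4, a rise of 2.63 ± 0.36 against 8h (limma adjusted p = 3.56e-11). The 8h libraries overlapped neither d2 nor d4. The region in Frmd4a, a scaffold of epithelial polarity (chr2:4355877-4356724), held 0.103, 0.113 and 0.0237 RPM at 8h and 0.477 and 0.502 RPM at d4, and in XEN cells it held 0.451 and 0.554 RPM. The difference between XEN cells and d4 was 0.03 ± 0.42 there. Of the 8 regions, those at Sash1 and Gja1 were called lower in XEN cells than at d4, and the other 6 were not called.

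The other leading gains at d4 differed in their levels at d2 and in XEN cells. The region nearest Gja1, which encodes a gap junction connexin, lay 226426 bases from the start of the gene (chr10:56603496-56604328). It held 0.0984, 0.0329 and 0.0427 RPM at 8h and 0.342 and 0.449 RPM at d4, and 0.0971 and 0.185 RPM in XEN cells. The region 30338 bases upstream of Actn1, an actin crosslinker (chr12:80290256-80291050), went from 0.169, 0.108 and 0.0522 RPM to 0.563 and 0.561 RPM. The region 29278 bases past the start of Dusp7, an ERK phosphatase (chr9:106397734-106398071), went from 0.0891, 0.0423 and 0.0332 RPM to 0.286 and 0.326 RPM, with its highest values at d2, 0.428, 0.519 and 0.445 RPM. The regions in Hsd17b3, a steroid dehydrogenase, and Cdcp2 rose by 2.39 ± 0.37 and 2.02 ± 0.37. All 8 kept their call at d4 under every alternative that was run.

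The only region that fell at d4 lay by another ERK phosphatase, Dusp6, which acts as feedback on FGF signalling. It was 22668 bases past the start of the gene (chr10:99285555-99286102) and was moderately accessible at d0. It held 0.108, 0.155 and 0.0949 RPM at 8h, 0.122, 0.0619 and 0.0920 RPM at d2, and 0.0352 and 0.0160 RPM at d4, which are 7 and 3 reads. The change against 8h was -1.43 ± 0.37 (limma adjusted p = 0.000471), and the d4 libraries lay below those of every other group. XEN cells held 0.0832 and 0.115 RPM, near the 8h level. At a pseudocount of 0.15 RPM this region was not called.

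The leading gains at d1 were transient in part. The region 114279 bases upstream of Abcb5, a membrane transporter (chr12:119080541-119080895), held 0.0656, 0.0658 and 0.0237 RPM at 8h, 0.132, 0.115 and 0.120 RPM at 16h, and 0.176, 0.222 and 0.232 RPM at d1. The 16h libraries already lay above every 8h library. It reached 0.341, 0.505 and 0.465 RPM at d2 and fell to 0.166 and 0.187 RPM at d4. In XEN cells the same region held 0.0555 and 0.0231 RPM. The rise at d1 was 1.60 ± 0.34 (limma adjusted p = 0.000703), the change from d2 to d4 was -1.16 ± 0.38 (adjusted p = 0.0256), and GATA6 binding there was classed as decreased after Oct4 knockdown. That fall from d2 to d4 was not called after centring, with quantile normalisation or at a pseudocount of 0.006 or 0.15 RPM. It was also lost without library b or c of d2 or either d4 library.

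The regions in introns of Pdss2, of coenzyme Q synthesis, Vps41, of the vesicle fusion machinery, and Pik3r1, a regulatory subunit of phosphoinositide kinase, rose at d1 by 1.42 ± 0.33, 1.40 ± 0.35 and 1.38 ± 0.33. The Vps41 region (chr13:18826708-18827565) held 0.15, 0.136 and 0.0570 RPM at 8h, 0.359, 0.268 and 0.167 RPM at 16h, 0.241, 0.440 and 0.348 RPM at d1, and 0.612, 0.943 and 0.746 RPM at d2. Its libraries at 16h and later lay above every 8h library. At a pseudocount of 0.15 RPM none of the 4 regions was called at d1. The calls of Vps41 and Pik3r1 at d1 were also lost without library c of 8h and without library b of d1. That of Vps41 was lost with quantile normalisation as well.

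The largest falls from d2 to d4 took regions to or below their 8h level. The region in Akr1b3, aldose reductase (chr6:34304542-34305410), held 0.489, 0.691 and 0.571 RPM at d2 and 0.146 and 0.187 RPM at d4, a change of -1.64 ± 0.39 (limma adjusted p = 0.0019). At 8h it held 0.295, 0.461 and 0.266 RPM, so the d4 libraries also lay below these. The regions near Zfp36l1, which promotes mRNA decay, and in Ceacam18, of a cell adhesion family, changed by -1.56 ± 0.39 and -1.55 ± 0.38. The call of Akr1b3 was lost without library a of d4, that of Ceacam18 without library b, and that of Zfp36l1 without either. That of Ceacam18 was also lost at a pseudocount of 0.15 RPM.

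The largest gains from d2 to d4 were smaller. They were near Pts, of biopterin synthesis, in Snx25, a sorting nexin, and in Macf1, a linker of actin and microtubules. The changes were 1.1 ± 0.36, 1.09 ± 0.36 and 1.09 ± 0.33. Each lost its call at a pseudocount of 0.15 RPM, without library c of d2 and without either d4 library. Each was also lost without a further d2 library, and Pts and Snx25 at 0.006 RPM. The Snx25 region (chr8:46094109-46094640) rose from 0.0656, 0.0905 and 0.0484 RPM at d2 to 0.156 and 0.198 RPM at d4. In XEN cells it was higher, at 0.423 and 0.508 RPM.

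XEN cells had some regions far more open than any induced sample. The region in Raver2, an RNA-binding protein (chr4:101079677-101080550), held 0.614 and 0.762 RPM in XEN cells, while the induced libraries ranged from 0.0431 RPM to 0.213 RPM. It was 1.97 ± 0.41 higher than at d4 (limma adjusted p = 9.84e-05). The regions nearest Ankrd7 and Mon1b, at 1125698 bases and 509758 bases from those genes, were 1.99 ± 0.37 and 1.64 ± 0.36 higher, and Mon1b was not called at a pseudocount of 0.15 RPM. Other regions were lower in XEN cells. The region nearest E030018B13Rik (chr7:63798407-63798737), which has no listed GATA6 motif, held 0.261 and 0.369 RPM at d4 and 0.0277 and 0.0462 RPM in XEN cells. The region in Zfp423, a zinc finger regulator (chr8:87754903-87755204), held 0.477 and 0.454 RPM at d4 and 0.0728 and 0.0923 RPM in XEN cells. These differences, of -2.36 ± 0.41 and -2.14 ± 0.42, were called under every alternative run.

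**Figure D5:**
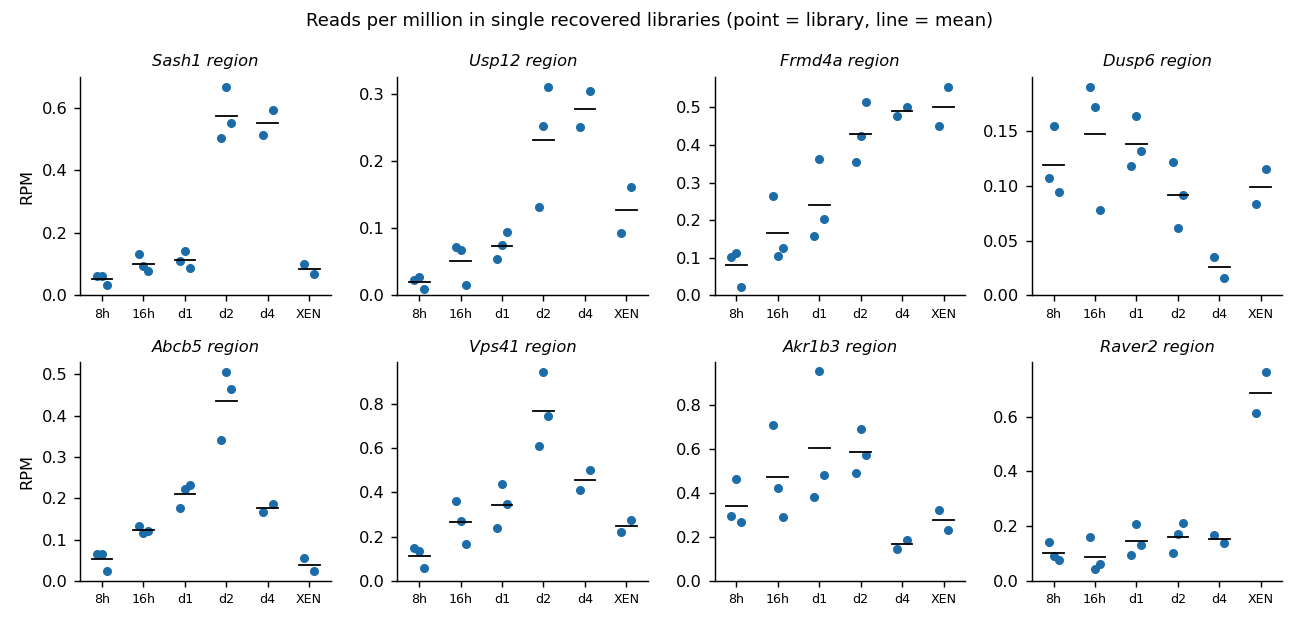
RPM in each recovered library (points; lines are group means; vertical axes start at 0 and differ between panels) for 8 regions bound by GATA6 alone, named by gene. The Sash1 region holds 0.503 to 0.667 RPM at d2 and at most 0.142 RPM before it, the Dusp6 region at most 0.0352 RPM at d4, and the Raver2 region 0.614 and 0.762 RPM in XEN cells.

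The most accessible regions at d0 were promoters. They lay at the starts of Icam4, a cell adhesion molecule, Got1, an aspartate aminotransferase, and Snx14, a sorting nexin (in Gm20537), with averages of 1.35, 1.33 and 1.23 RPM at d0. At d2 the averages were 2.29, 2.68 and 1.81 RPM, and in XEN cells 0.984, 1.75 and 0.936 RPM. In the libraries, Icam4 went from 1.06, 1.62 and 0.964 RPM at 8h to 1.88, 2.69 and 2.29 RPM at d2, a difference of 0.92 ± 0.36 that did not reach 2-fold.

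Few of the regions lay at known lineage genes. Of 34 primitive endoderm genes, 11 were the host or nearest gene of at least 1 region, with 13 regions in all. These 13 were 3.87% of the 336 GATA6 regions at those genes, against 5.37% in the whole table. In the averages 8 of the 13 gained more than 2-fold at d2 and 6 at d4, and none lost more than 2-fold at either time. Over all regions the shares past 2-fold are the 36.8% and 31.0% gained and 1.41% and 7.27% lost that are given above. Of the 6 with recovered libraries, 3 rose at d2 and 1 at d4 by limma, and none fell, where 36.8% and 30.5% of all recovered regions rose and 1.15% and 6.6% fell.

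At the transcription factor genes of the list, the region 51 bases upstream of the outermost annotated start of Gata4 (chr14:63271477-63272037) averaged 0.0891 RPM at d0, 0.0972 at 8h, 0.144 at 16h, 0.245 at d1, 0.446 at d2, 0.277 at d4 and 0.206 in XEN cells. The region in an intron of Gata6 averaged 0.0653 RPM at d0, 0.200 at d2 and 0.182 at d4. A region 34930 bases past the start of Foxa2 averaged 0.0239 RPM at d0 and 0.0885 RPM at d4, its highest value. The region 105203 bases upstream of Sox17 (chr1:4602360-4602895) went the other way late. It held 0.291, 0.177 and 0.178 RPM at 16h, 0.188, 0.248 and 0.160 RPM at d2, and 0.0703 and 0.0695 RPM at d4, a change of -1.18 ± 0.38 from d2 (limma adjusted p = 0.0255), and in XEN cells it held 0.236 and 0.208 RPM. The fall was not called after centring, with quantile normalisation or at a pseudocount of 0.15 RPM. It was also lost without library b of d2 or either d4 library.

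At the matrix and receptor genes of the list, the region in an intron of Col4a2, 8926 bases from the start of Col4a1 (chr8:11321421-11321948), both chains of type IV collagen, held 0.0703, 0.0235 and 0.0285 RPM at 8h and 0.170, 0.286 and 0.281 RPM at d2. It rose by 1.99 ± 0.32 (limma adjusted p = 6.73e-09) and held 0.111 and 0.123 RPM at d4. XEN cells, which make basement membrane, had 0.0139 and 0.0231 RPM there, or 4 and 1 reads, where 1 read is the floor. The change from d4 was -1.60 ± 0.39 (limma adjusted p = 0.00106) and was not called at a pseudocount of 0.15 RPM. The region in an exon of Lamc1, a laminin chain, differed from 8h by 0.47 ± 0.33 at d2 and was not called. At Lrp2, the endocytic receptor megalin, the promoter region averaged 0.132 RPM at d0, 0.342 at d2 and 0.0762 in XEN cells, and near Nid2, nidogen, the highest average was 0.373 RPM at d1. The regions assigned to the signalling genes Ihh (in an intron of Nhej1) and Bmp2 averaged 0.194 and 0.0366 RPM at d0 and 0.443 and 0.117 RPM at d2.

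At the pluripotency genes of the list, the regions were 3.42% of the 234 GATA6 regions, against 5.37% in the whole table. The choice left out regions with a peak of OCT4, SOX2 or ESRRB, so this share is not independent of it. At 6 of 25 pluripotency genes there were 8 regions, of which 3 gained more than 2-fold at d2 and 1 at d4 (36.8% and 31.0% of all regions), and none lost more than 2-fold (1.41% and 7.27%). Near Klf4 (chr4:55538833-55539237) the values were 0.0609, 0.0376 and 0.0380 RPM at 8h, 0.131, 0.410 and 0.203 RPM at d2, and 0.0804 and 0.0962 RPM at d4. The rise at d2 was 1.77 ± 0.32 and the change from d2 to d4 was -1.11 ± 0.36 (limma adjusted p = 2.38e-07 and 0.0246). Neither was called after centring, with quantile normalisation or at a pseudocount of 0.15 RPM. The second was also lost at 0.006 RPM, and without library b or c of d2 or either d4 library. The region nearest Klf5 averaged 0.163 RPM at d0, 0.427 at d2 and 0.405 in XEN cells, and Tfcp2l1, Tbx3 and Dppa3 differed from 8h at d2 by 0.91 ± 0.33, -0.26 ± 0.33 and 0.69 ± 0.34, none called. Near Sall4 the average was 0.0366 RPM at d0 and 0.0913 RPM at d4.

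At 7 of 25 genes of other lineages and of feeder fibroblasts there were 7 regions. They were 6.86% of the 102 GATA6 regions at the 25 genes, against 5.37% in the whole table. Of the 7, 4 gained more than 2-fold at d2 and 4 at d4, against 36.8% and 31.0% of all regions. Other members of the GATA family were among these genes. The region 24082 bases upstream of Gata2 (chr6:88169410-88170057) held 0.122, 0.118 and 0.0902 RPM at 8h, 0.341, 0.424 and 0.421 RPM at d2, 0.241 and 0.417 RPM at d4, and 0.416 and 0.254 RPM in XEN cells. It rose by 1.61 ± 0.34 at d2 and 1.32 ± 0.38 at d4 (limma adjusted p = 1.59e-05 and 0.0022). It was called at neither time after centring or with quantile normalisation. Its d4 call was also lost at a pseudocount of 0.15 RPM and without library b of d4. The region in Gata3 averaged 0.0913 RPM at d0 and 0.241 RPM at d2, and that in Gata1 0.252 RPM at d0, 0.408 at 16h and 0.124 at d4. The promoter region of Krt8, a keratin, went from 0.278 to 0.944 RPM between d0 and d2, and the region in Runx1 from 0.0307 to 0.134 RPM. At the fibroblast genes Col1a2 and Thy1, the regions differed from 8h at d2 by 0.57 ± 0.32 and 0.84 ± 0.32 and were not called.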

How the data were processed

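ATAC-seq was deposited for 20 samples. The authors trimmed reads with cutadapt, aligned them with Bowtie2 to mm10, filtered with SAMtools (mapping quality over 30), kept fragments under 100 bp, counted them per GATA6 region and averaged each group. The deposited ATAC columns hold RPM, averaged by the authors, with no value per sample. The deposited motif columns hold match scores and counts of matches per region, made by the authors with FIMO, and their positions. The other deposited columns used are categories. The table also holds 52 value columns of other assays, which were not used.

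Averages with over 12 significant digits were solved for whole reads of single libraries (tolerance 1e-07 reads); of 24753 such regions, 24727 had a single solution in every group but d0, where none was found. These regions lie on part of the chromosomes. The result is 24727 regions and 16 libraries of 43.3 to 288 M reads, with 202347 to 2020232 reads in the recovered regions. limma 3.58.1 (R 4.3.3; lmFit, contrasts, eBayes with trend) was run on log2(RPM + 0.03) over all groups; this scale compresses the changes of low regions. Errors are SE from that fit. The study reports independent cell cultures for its ATAC-seq samples, 3 per group and 2 for d4. Which culture each recovered library came from is not known. The p-values measure the spread between libraries, and counting error is only part of it. Scripts were tested on simulated data. Annotation was GENCODE vM21 basic and sequence GRCm38.p6, the same build as mm10; a promoter lies within 1000 bases of the start of a basic transcript, and gene distances run from the start of the protein-coding gene record.

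Named regions were, among recovered regions that were called without overlap of libraries and after leaving out 1 chromosome, the 8 largest gains and 6 largest falls at d4 against 8h (1 fall qualified), the 4 largest gains at d1, the 3 largest gains and 3 largest falls from d2 to d4 and from d4 to XEN. From the averages came the 3 most accessible at d0 and the most accessible region at each gene of 3 lists. The regions, lists and rules were chosen with earlier results of these data known. Alternatives were other pseudocounts, centring, quantile normalisation, filters, leaving out promoters or each library, and fits of only the groups compared.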

Additional observations from a re-analysis of the deposited data

How the results depend on the processing

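The values below changed with the scaling, the pseudocount and, for the calls at d1, from d2 to d4 and between XEN cells and d4, with single libraries, and the cause was not tested. With each column centred on its median, the median change from d0 was 0.0012 at d1, -0.0418 at d2, -0.0441 at d4 and -0.0354 in XEN cells, so the last 3 changed direction. With quantile normalisation it was 0.0782, 0.0877, 0.0283 and 0.00055. At a pseudocount of 0.006 RPM it was 1.01 at d2 and 0.67 at d4, and at 0.15 RPM it was 0.40, 0.25 and 0.21 at d2, d4 and in XEN cells. Among regions with at least 0.1 RPM in 1 column it was 0.95 at d2 and 0.61 at d4. The regions past 2-fold in either direction in the averages numbered 101 at d1, 847 at d2, 474 at d4 and 449 in XEN cells. At 0.006 RPM they numbered 1 at 8h, 277 at d1, 751 at d4 and 739 in XEN cells. At 0.15 RPM they numbered 0 at d1, 255 at d2, 70 at d4 and 54 in XEN cells. Centred, they numbered 3, 224 (147 higher), 160 (91 higher) and 224 (109 higher), and quantile normalised 3 at d1, 142 (115 higher) at d2 and 152 (94 higher) at d4. 

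In limma the calls were 64 at d1, 466 at d2, 271 at d4, 53 from d2 to d4 and 147 between XEN cells and d4. At 0.15 RPM they were 0, 153, 36, 6 and 30, and at 0.006 RPM 33 from d2 to d4. Centred on the median they were 2 at 16h, 9 at d1, 163 at d2 (107 higher), 98 at d4 (61 higher) and 23 from d2 to d4. Quantile normalised they were 6, 8, 111 (86 higher), 108 (72 higher) and 13. Fitting only 8h and d1 gave 24. Leaving out each library in turn gave 0 at 16h throughout, 3 to 113 at d1, 368 to 551 at d2, 191 to 354 at d4, 5 to 50 from d2 to d4 and 46 to 139 between XEN cells and d4. Where this left d4 or XEN with 1 library, that library was taken to vary like the other groups. Subtracting 1 read and leaving out promoters, both alternatives chosen after seeing the data, and requiring a mean of 10 reads kept every count within 1.5 times. For all 70 called changes of the named regions, 153 of 920 values recomputed under these alternatives lost the call. Of these, the rise near Zfp36l1 from 8h to d2, 1.11 in the fit reported, became -0.05 with quantile normalisation. No paired analysis was possible because the recovered libraries carry no replicate number. Depth limits the lowest regions, where a few reads decide a value, above all in XEN library b.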
